A study of Mus musculus with 5 samples.

Results

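Mettl3 encodes the catalytic subunit of the complex that writes N6-methyladenosine, called m6A, into messenger RNA. All its exons in the deposited tables of cassette exons are described here: exons 2, 4 and 9 of the gene, 3 among 6616 exons in all. A cassette exon is one that a transcript either holds or skips. The tables leave the gene cell of these 3 exons blank, and their name comes from the GENCODE M21 mouse annotation, in which an exon and 2 introns of the same lengths stand in the same order. Exons 4 and 9 were singled out because the authors' estimate of their inclusion differed between the groups in these same data. Their differences are therefore given as a description, with no test, and the same holds for every other Mettl3 measure of that contrast.

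The samples were left ventricle of C57BL/6 mice aged 12 weeks, 2 Control and 3 STZ. From 8 weeks of age the mice had 1 intraperitoneal injection a day for 5 days, of citrate buffer in Control and of streptozotocin at 70 mg/kg in STZ. Streptozotocin is toxic to the pancreatic beta cells that make insulin, and mice so treated serve as a model of diabetes from loss of insulin. The labels give no sex and do not state that each sample is a separate animal, so the spread below may be in part technical. No sample title holds the library codes of the tables, so the side with 2 libraries was taken as Control (A and B) and the side with 3 as STZ (A, B and C), from these sizes alone. The codes are of 2 kinds, 1 for each group, so a difference in handling cannot be told apart from STZ treatment. Between 6741244 reads (STZ C) and 11431749 reads (Control B) fitted an isoform of the 6331 exons that all 6 tables hold.

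METTL3 works as a pair with METTL14, which holds the RNA, while WTAP, VIRMA and further adaptors place the pair on its targets. The mark is removed by the demethylases FTO and ALKBH5 and is read by proteins of the YTH family, which act on the splicing, translation and decay of marked transcripts. In heart muscle cells METTL3 has been studied as a regulator of cell growth under load.

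All 3 exons are coding in the principal Mettl3 transcript, which has 11 exons on the minus strand of chromosome 14. In mm9, the build of the tables, exon 2 lies at chr14:52919859-52920076, exon 4 at chr14:52918315-52918490 and exon 9, of 66 nt, at chr14:52916191-52916256. The sequences below are those of the GENCODE M21 transcript (GRCm38), shown because these are the bases gained or lost with each exon. Capitals mark the first 2 and the last 3 bases, the exon's part of its splice sites.
Mettl3 exon 2: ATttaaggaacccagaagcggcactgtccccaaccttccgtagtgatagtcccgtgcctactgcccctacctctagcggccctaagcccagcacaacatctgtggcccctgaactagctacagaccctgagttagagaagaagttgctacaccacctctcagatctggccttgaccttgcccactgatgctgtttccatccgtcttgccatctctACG
Mettl3 exon 4: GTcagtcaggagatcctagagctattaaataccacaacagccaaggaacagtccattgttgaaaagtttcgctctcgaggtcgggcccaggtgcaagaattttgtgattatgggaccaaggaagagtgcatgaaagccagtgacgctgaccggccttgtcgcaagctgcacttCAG
Mettl3 exon 9: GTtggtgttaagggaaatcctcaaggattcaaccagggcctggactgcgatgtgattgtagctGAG

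Exon 9 is a multiple of 3 long, and its 22 codons can be left out without a shift of the reading frame. The lengths of exons 2 and 4 are not multiples of 3. Joining exon 3 to exon 5 in the transcript sequence, as skipping exon 4 does, gave a stop codon that ends 15 bases past the new junction. It came after 245 of the 580 codons of the full reading frame, with 6 exon junctions of the principal transcript downstream of it. In the deposited measurement exon 4 is followed instead by an 881-nt last exon, which starts at the same base as exon 5. None of these 6 junctions is part of that measurement. The last 30 bases of exon 3 are followed here by exon 5 up to that stop codon, which is in capitals.
Mettl3 exon 3 joined to exon 5: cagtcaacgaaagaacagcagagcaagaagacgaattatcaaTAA
GENCODE M21 holds 3 Mettl3 transcripts with this junction, 2 of them classed as targets of nonsense-mediated decay, the pathway that degrades messages with an early stop, and 1 as a retained intron. It holds 2 transcripts that skip exon 9 and 0 that skip exon 2.

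**Figure D1:**
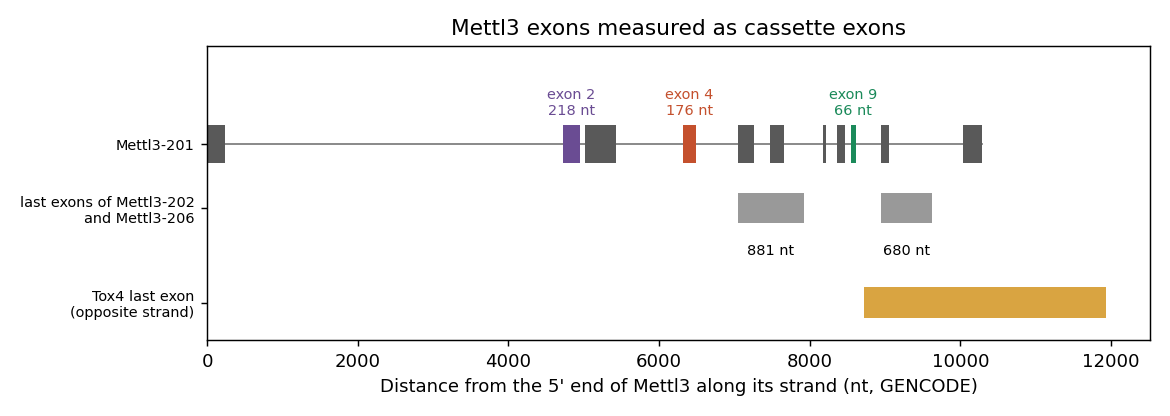
Exons of Mettl3 by distance from its 5′ end in nt (x axis), with exons 2, 4 and 9 in colour, the 881-nt and 680-nt last exons of shorter Mettl3 transcripts in grey, and the last exon of Tox4 on the opposite strand. The Tox4 exon covers the 680-nt exon fully and the 881-nt exon not at all.

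Psi, the measure of inclusion, is the fraction of transcripts holding an exon, as the authors estimated it with MISO. MISO sorts the reads of an event, that is an exon with the exon on either side, into 4 classes. Inclusion-only reads touch the exon or its junctions, exclusion-only reads span the junction that skips it, reads of both isoforms lie on the flanking exons, and reads of neither lie within the event but match neither isoform. The 2 former are called informative here. Psi is drawn from the first 3 classes together with the lengths of the isoforms.

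Psi of exon 4 was 0.91 in Control A and 0.86 in Control B, against 0.28 in STZ A, 0.36 in STZ B and 0.29 in STZ C. The lowest Control library lay far above the highest STZ library, and 28.8% of the 4769 exons with at least 10 informative reads in every library had groups apart in this direction. The means were 0.885 ± 0.0354 (SD, n = 2) and 0.31 ± 0.0436 (SD, n = 3). Psi of exon 9 was 0.95 in both Control libraries and 0.27, 0.32 and 0.33 in STZ A, STZ B and STZ C, again without overlap, with means of 0.95 ± 0 and 0.307 ± 0.0321. Exon 2 was included in nearly all transcripts of every library, with Psi of 0.96 and 0.97 in Control and 0.97, 0.97 and 0.98 in STZ, and there the groups overlapped. Of the same 4769 exons, 7.46% had a Psi at least 0.20 lower in STZ with no overlap of the groups. Of the 3 Mettl3 exons 2 did. They were chosen for this difference, so nothing is read from that count. A larger difference downwards was seen in 9 exons than at exon 4, and in 7 than at exon 9. Nothing is read from these ranks either.

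**Figure D2:**
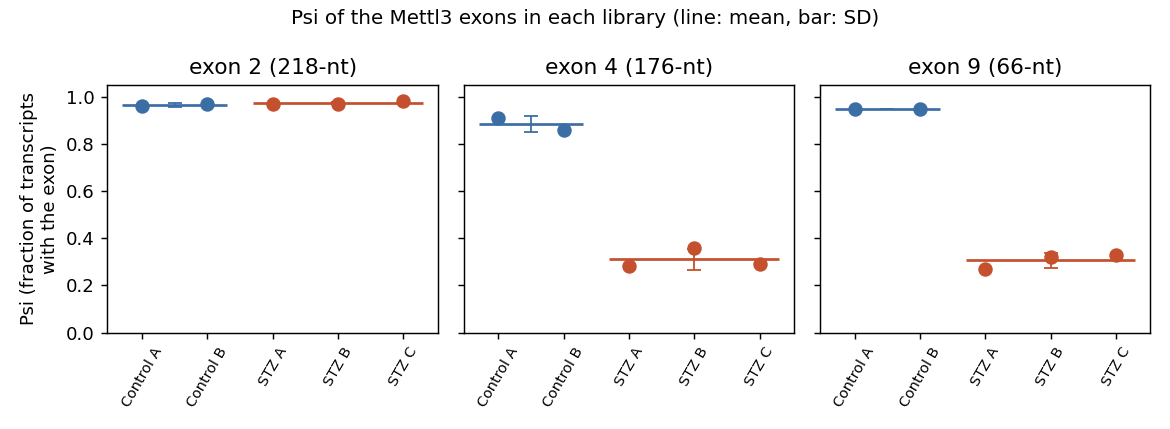
Psi (y axis, fraction) of the 3 Mettl3 exons in each of the 5 libraries (x axis), with the group mean as a line and the SD as a bar. Exon 2 stays at 0.96 to 0.98, while exons 4 and 9 lie at 0.86 to 0.95 in Control and at 0.27 to 0.36 in STZ.

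In the authors' deposited tables, which set 1 Control library against 1 STZ library, the difference in Psi of exon 4 ran from 0.5 to 0.63 over the 6 comparisons, and that of exon 9 from 0.62 to 0.68. The lowest Bayes factor in the authors' deposited tables, the evidence for a difference over that for none, was 3.90e+58 for exon 4 and 7.00e+12 for exon 9. For exon 2 it did not exceed 0.15 in the authors' deposited tables. These factors weigh the reads of 1 pair of libraries and carry no spread between replicates.

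The read classes behind these values differed between the exons. For exon 4, inclusion-only reads numbered 257 and 300 in Control A and Control B and 21, 26 and 25 in STZ A, STZ B and STZ C. Exclusion-only reads numbered 12 and 24 in Control and 18, 17 and 20 in STZ. So the skipping junction was seen about as often in both groups, in STZ libraries of lower depth, while the reads of the exon itself were few in all 3 STZ libraries. The inclusion-only share of informative reads was 95.5% (95% exact Clopper-Pearson interval 92.3 to 97.7) in Control A and 92.6% (89.2 to 95.2) in Control B. It was 53.8% (37.2 to 69.9) in STZ A, 60.5% (44.4 to 75.0) in STZ B and 55.6% (40.0 to 70.4) in STZ C. These intervals cover counting error only, and none of Control met one of STZ. The share differed by less than Psi did, 94.1% against 56.6% in the mean.

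For exon 9 no read of the skipping junction was found in any library. Its inclusion-only reads numbered 72 and 85 in Control A and Control B and 11, 16 and 13 in STZ A, STZ B and STZ C. With 0 exclusion-only reads among 157 informative reads of Control, an exclusion-only share of up to 1.91% is allowed (3 counts of the total), and with 0 among 40 of STZ, one of up to 7.5%. Within single STZ libraries the limit was 18.8% to 27.3%. The share of inclusion-only reads was thus 100% in all 5 libraries at the exon whose Psi was 0.95 in Control and 0.307 in STZ. What differed was the number of reads of both isoforms beside each inclusion-only read, 5.17 and 5.28 in Control against 33.5, 24.7 and 28.3 in STZ.

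The flanking exons on which reads of both isoforms lie are unequal in length. The event pairs exon 9 with an upstream exon of 109 nt (exon 8) and a downstream exon of 681 nt, an extended form of exon 10. The 681-nt exon makes up 86.2% of the flanking length. Exon 10 of the principal transcript has only 113 nt, and most of the 681 nt is intron sequence in that transcript. Reads of both isoforms at this event, and so its Psi, rest in part on that sequence. In GENCODE M21 the corresponding last exon of 680 nt lies with all its 680 nt inside the last exon of Tox4, a gene of an HMG-box protein that runs the other way (GRCm38, chr14:52293201-52296401). The Tox4 exon and exon 9 are 114 nt apart, and the Tox4 exon covers no base of Mettl3 exons 1 to 9. The labels do not say whether the libraries keep the strand, so on the 681-nt exon reads of Mettl3 and of Tox4 cannot be told apart. The tables hold 0 events of Tox4, and the part of Tox4 reads in Psi of exon 9 was not tested.

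Set against library size, as RPM, the reads per 1000000 reads that fit an event of the library, the Mettl3 classes moved apart along the gene. Inclusion-only reads of exon 2 stood at 31.2 and 38.1 RPM in Control and at 12.4, 11.6 and 12.3 in STZ. Those of exon 4 stood at 27.8 and 26.2 in Control and at 2.77, 3.39 and 3.71 in STZ. Those of exon 9 stood at 7.80 and 7.44 in Control and at 1.45, 2.08 and 1.93 in STZ. No STZ library reached a Control library at any of the 3 exons, and the Control mean was 2.86 times the STZ mean at exon 2, 8.23 times at exon 4 and 4.18 times at exon 9.

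Reads of both isoforms went with the inclusion-only reads at exon 2 and not at the others. At that event they stood at 32.6 and 31.9 RPM in Control and at 10.8, 10.2 and 12.6 in STZ, a Control mean 2.88 times that of STZ. At the exon 4 event they stood at 38.2 and 39.8 in Control and at 17.5, 15.4 and 22.0 in STZ, 2.13 times. At the exon 9 event they were higher in STZ, at 48.5, 51.5 and 54.6 RPM against 40.3 and 39.3 in Control. Exclusion-only reads of the exon 4 event were 1.30 and 2.10 RPM in Control and 2.37, 2.21 and 2.97 in STZ, a small difference upwards where inclusion-only reads were 8.23 times lower. The equal change of both classes at exon 2 stands beside a Psi that hardly moved there.

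**Figure D3:**
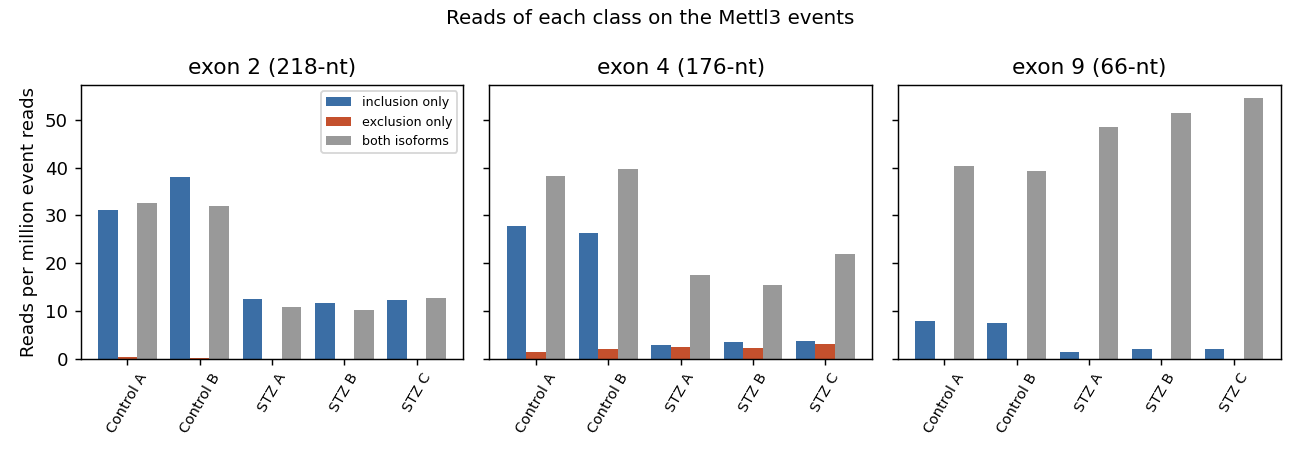
RPM of event reads (y axis, from 0) of 3 classes in each library (x axis), for the 3 Mettl3 exons. Inclusion-only reads are lower in every STZ library at all 3 exons, while reads of both isoforms are lower at exons 2 and 4 and higher at exon 9, at 48.5 to 54.6 against 39.3 to 40.3.

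Per length the same contrast appears in the ratio of exon to flanks within a library. The densities below are not scaled to library size, so only that ratio is to be compared between the groups. The exon 4 event is flanked by exon 3 and by an 881-nt last exon, which spans exons 5 and 6 with intron sequence. Reads of both isoforms at this event, and so its Psi, rest in part on that sequence. In Control exon 4 had 146 and 170 inclusion-only reads per 100 nt of exon, and its flanking exons 27.4 and 35.4 reads of both isoforms per 100 nt. In STZ A, STZ B and STZ C the exon had 11.9, 14.8 and 14.2 and the flanks 10.3, 9.18 and 11.5. Exon 9 had 109 and 129 in Control and 16.7, 24.2 and 19.7 in STZ, beside flanks at 47.1 and 56.8 in Control and 46.6, 50.0 and 46.6 in STZ. Junction reads count for the exon here, so a ratio of 1 is not the value of full inclusion. The exon had 2.32 and 2.27 times the density of its flanks in Control and 0.358, 0.485 and 0.423 times in STZ. For exon 2 this ratio overlapped between the groups, at 3.27 and 4.07 in Control and 3.34 to 3.92 in STZ.

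Reads of all 3 classes on the exon 2 event came to 64.1 and 70.1 RPM in Control and to 23.2, 21.8 and 24.9 in STZ, 0.347 times in the mean. On the exon 4 event they came to 67.4 and 68.1 in Control and to 22.7, 21.0 and 28.6 in STZ, 0.356 times. Both events therefore held less in STZ by about the same factor, with no overlap. Exon 3 flanks both events, so its reads count in both and the factors are not independent measures. On the exon 9 event they came to 48.1 and 46.7 in Control and to 49.9, 53.5 and 56.5 in STZ, 1.13 times. Of 5589 events with at least 20 reads on average, 17.9% were at least 2-fold lower in STZ without overlap, as were the events of exons 2 and 4, and the median event stood at 0.899 times, a shift of -0.15 on the log2 scale. Relative to that median the 3 Mettl3 events stood at 0.386, 0.395 and 1.25 times. In tissue, fewer cells of a type and less RNA per cell cannot be told apart.

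The make-up of the event reads differed between the groups as well. Events of 6 of 12 heart muscle genes (Ttn, Ryr2, Tnnt2, Ldb3, Myom1 and Pln) held 129329 to 130569 RPM in Control and 61200 to 68277 in STZ, so the labelled tissue shows in every library. Of 5 endothelial genes only Pecam1 has events, at 1726 to 1931 RPM in Control and 4415 to 7232 in STZ. Smooth muscle genes (2 of 4, 421 to 425 and 421 to 541) and leukocyte genes (2 of 4, 65.2 to 67.2 and 58.0 to 121) lay closer together, and none of 5 fibroblast genes has an event. The part of these shifts in the Mettl3 values was not tested.

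Among the tested exons of other genes, the 5 with Psi most like exon 4 in all 5 libraries were chosen by their distance on the logit scale. The nearest was in Hnrnph1, which regulates splicing (139 nt), at a distance of 0.444, with Psi of 0.9 and 0.85 in Control and 0.31, 0.29 and 0.34 in STZ. Next came exons of Uhrf2, a chromatin-binding ubiquitin ligase (260 nt, 0.763), Stx2, a syntaxin of membrane fusion (125 nt, 0.797), Hmgxb4, an HMG-box protein (115 nt, 1.04), and Ggcx, the vitamin K-dependent carboxylase (152 nt, 1.10). At the Hnrnph1 exon, exclusion-only reads were 40 in Control and 408 in STZ. At the Ggcx exon they were 3 and 3, while inclusion-only reads were 532 and 43. Exclusion-only reads were also higher in STZ at the exons of Uhrf2 (17 and 87) and Stx2 (14 and 64). At the Hmgxb4 exon they were 24 and 40, with inclusion-only reads of 207 and 39. That is near the course at exon 4 of Mettl3, with 36 and 55 exclusion-only and 557 and 72 inclusion-only reads. Like Psi thus came with unlike read classes at some of these exons and with similar ones at Hmgxb4.

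The exon most like exon 9 was a 77-nt exon of Morf4l2, a chromatin protein of histone acetyltransferase complexes, at a distance of 0.68. Its Psi was 0.95 and 0.97 in Control and 0.35, 0.28 and 0.32 in STZ, with exclusion-only reads numbering 36 in Control and 516 in STZ, where Mettl3 had 0. The next were in Dpp7, a lysosomal peptidase (119 nt, 1.20), Uhrf2 (260 nt, 1.40), Hnrnph1 (139 nt, 1.44) and Shkbp1 (171 nt, 1.51). Exons 4 and 9 of Mettl3 lay 1.32 apart. These distances use the values that chose the Mettl3 exons and are a description over 5 libraries.

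Other exons without a skipping read were looked at beside exon 9. Of the tested exons, 656 had 0 exclusion-only reads in every library, and 6.55% of them passed the test of Psi against 15% of all tested exons (limma, adjusted p under 0.05). Such exons are mostly near full inclusion, with a median Psi of 0.96 in Control and 0.937 in STZ. The 656 and all tested exons are therefore not alike, and the lower share is not read as a result. Psi was at least 0.20 lower in STZ in 13 of these 656 (1.98%) and at least 0.20 higher in 3 (0.457%). None of the 656 had a larger difference downwards than exon 9 of Mettl3. Exon 9 was chosen for this difference, so nothing is read from its rank. Of the 13, 9 had more reads of both isoforms per inclusion-only read in STZ than in Control, 2 had fewer and 2 had the same number. Since Psi is drawn from these reads, that count describes how the measure moved and is no separate evidence.

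**Figure D4:**
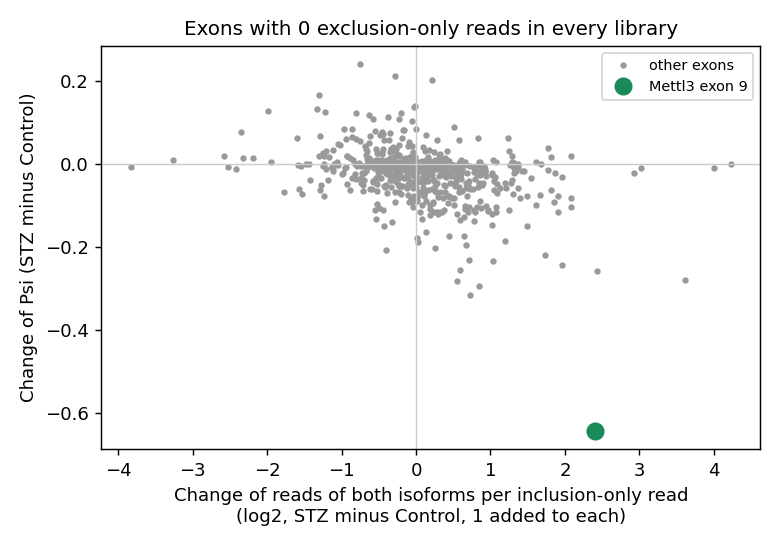
Change of Psi (y axis, STZ minus Control) against the log2 change of reads of both isoforms per inclusion-only read (x axis, with 1 added to each read count) for 656 exons with 0 exclusion-only reads in every library. Exon 9 of Mettl3, chosen for its change, lies alone at the bottom, at -0.643.

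The other exons of this kind with most inclusion-only reads had smaller differences. In Slc47a1, an exporter of organic cations, Psi of a 366-nt exon was 0.95 ± 0.0141 in Control and 0.73 ± 0.115 in STZ, with 887 and 266 inclusion-only reads and 0 reads of both isoforms in either group. In Tmx2, a thioredoxin-related membrane protein, Psi of a 114-nt exon was 0.99 ± 0 and 0.71 ± 0.154, with 885 and 144 inclusion-only reads. Exons of Copz1 (0.665 and 0.383), Alg9 (0.97 and 0.767) and Tmem255b (0.925 and 0.693) completed the set.

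Besides Mettl3, 35 genes that write, erase or read m6A or supply its methyl donor were looked up. Of these 14 have events, 25 in all, and 19 events of 11 genes met the minimum of reads for the test. In STZ 2 of the 19 rose, where 4.84% of all tested exons did, and 4 fell, where 10.1% did. Both directions together came to 31.6% against 15%. Of the 6 calls, 5 changed by at least 0.10, and 10.2% of all tested exons were called with such a change. The lists were chosen with earlier results of these data known, and some calls are of exons of the same gene (Hnrnpc and Hnrnpa2b1). These shares are therefore a description. The median change of Psi over the 19 was -0.02, and over all tested exons it was -0.01. The YTH readers held 5 of the 19 tested exons and other binding proteins 9, and all 6 changes were among these, while the other roles held 2, 2 and 1 tested exons. Whether the roles differ was not tested.

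Within the writer complex 0 of 2 tested exons passed in limma, and 0 at an unadjusted p under 0.05. For a 93-nt exon of Mettl14, the partner of Mettl3, Psi was 0.97 ± 0 and 0.917 ± 0.0503 in Control and STZ (adjusted p = 0.371), with 390 and 156 inclusion-only and 0 exclusion-only reads. With the share of reads in place of Psi it passed (limma, adjusted p = 0.0346), although the inclusion-only share was 100% in both groups. That setting adds 0.5 to each read class, so with 0 exclusion-only reads it follows the number of inclusion-only reads alone. It says nothing on skipping of this exon. Reads on this event were 21.1 and 21.2 RPM in Control and 10.9, 6.25 and 6.97 in STZ. That is 0.381 times in the mean, without overlap, near the 0.347 and 0.356 times of the events of Mettl3 exons 2 and 4. Of the 5589 events compared for level, 17.9% were likewise at least 2-fold lower in STZ without overlap, so nothing is read from this likeness. A 150-nt exon of Virma was skipped in both groups, with 0 inclusion-only and 179 and 158 exclusion-only reads (adjusted p = 1). Its Psi of 0 in Control and 0.01 in STZ passed with a clip at 0.001 (limma, adjusted p = 0.00219). Its reads stood at 104 and 122 RPM in Control and at 102, 77.9 and 94.6 in STZ, 0.811 times in the mean, with the lowest Control library just above the highest STZ library. Wtap had 1 event with too few reads to test, and Mettl5, which methylates ribosomal RNA, had an 83-nt exon at 0.895 ± 0.0636 and 0.873 ± 0.0981 (adjusted p = 0.987). None of the 2 erasers has an event.

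Among the YTH readers inclusion rose in Ythdf3, a cytoplasmic reader. Psi of its 33-nt exon (chr3:16103187-16103219) was 0.15 and 0.14 in Control A and Control B and 0.44, 0.43 and 0.48 in STZ A, STZ B and STZ C, and the groups lay well apart. The means were 0.145 ± 0.00707 and 0.45 ± 0.0265 (limma, adjusted p = 0.00714). Inclusion-only reads were 80 in Control and 116 in STZ, and exclusion-only reads 212 and 41, so the share of inclusion-only reads went from 27.5% to 74.0%. Here both informative classes moved with Psi, unlike at exon 9 of Mettl3. The 1584-nt exon of Ythdf2 did not pass (0.98 ± 0 and 0.983 ± 0.00577, adjusted p = 0.652). Nor did the 54-nt exon of Ythdc1, the nuclear reader (0.95 ± 0 and 0.917 ± 0.0493, adjusted p = 0.564).

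Other proteins known to bind marked RNA held 5 of the 6 changes. In Hnrnpa2b1 a 120-nt exon fell from 0.78 ± 0.0141 to 0.45 ± 0.0557 (limma, adjusted p = 0.0189), with a read share of 96.9% and 88.8%, and a 136-nt exon fell from 0.915 ± 0.00707 to 0.89 ± 0 (adjusted p = 0.0349). In Hnrnpc overlapping exons went opposite ways: a 1223-nt exon rose from 0.06 ± 0.0141 to 0.223 ± 0.0321 (limma, adjusted p = 0.0209) and a 26-nt exon within it fell from 0.64 ± 0.0141 to 0.347 ± 0.0379 (adjusted p = 0.0159). In Fxr1, a relative of the fragile X protein, a 92-nt exon fell from 0.91 ± 0.0141 to 0.76 ± 0.0361 (limma, adjusted p = 0.0286). A 58-nt exon of Elavl1 (0.135 ± 0.00707 and 0.06 ± 0.0458, adjusted p = 0.332) did not pass, nor did a 123-nt exon of Mat2a, which makes the methyl donor (Psi 1 in every library, adjusted p = 1).

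The call of Ythdf3 held without any 1 library (adjusted p up to 0.0436). Leaving out any 1 library ended that of the 1223-nt exon of Hnrnpc (limma, adjusted p = 0.0511 to 0.0829). Leaving out Control A or Control B ended those of the 26-nt exon of Hnrnpc (up to 0.0849), the 120-nt exon of Hnrnpa2b1 (up to 0.103) and Fxr1 (up to 0.129). So did STZ C for all of these, STZ B for the 26-nt exon of Hnrnpc and STZ A for Fxr1. The change of 0.025 at the 136-nt exon of Hnrnpa2b1 lost its call without STZ A, STZ B or STZ C (up to 0.118) and in 3 other alternatives, with the share of reads in place of Psi the farthest (0.472).

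**Figure D5:**
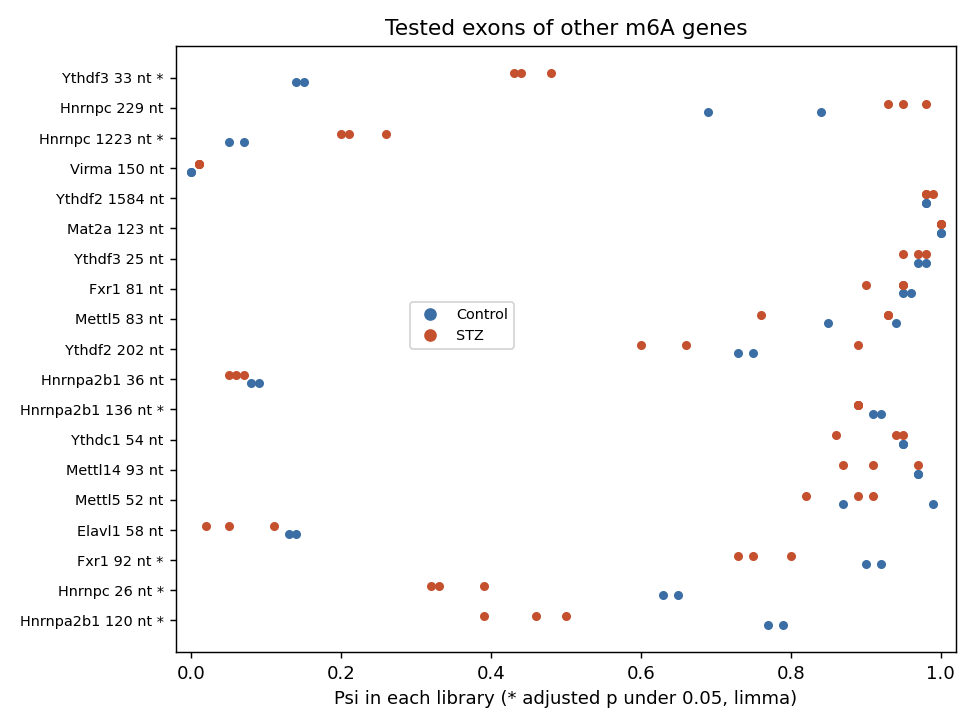
Psi in each library (x axis, Control and STZ as dots of 2 colours) for the 19 tested exons of the other m6A genes (y axis), ordered by their change, with a star where the adjusted p is under 0.05 in limma. The 33-nt exon of Ythdf3 stands at the top, at 0.14 to 0.15 in Control and 0.43 to 0.48 in STZ.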

How the data were processed

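RNA of left ventricle was sequenced in 2 Control and 3 STZ samples. The submitters' processing notes name CASAVA 1.8.2, TopHat and the build mm9. Per the file headers, each of the 6 tables is a MISO comparison of 1 library with another. MISO's version, event annotation and strand setting were not given in the sources used here. The authors deposited Psi as a fraction rounded to 2 decimals, and the difference in Psi and the reads of 4 classes, both of the unit other, are deposited by the authors beside it. The Bayes factor is a ratio deposited by the authors. A library had the same values in every table (0 differences). A further 36 columns of per-library values were left out.

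Genes were named by the files (3665 exons), otherwise by the lengths of exon and introns in GENCODE M21 (2584). Where both gave a name, 98.2% of 3313 were the same. Psi was clipped to 0.01 to 0.99 and put on the logit scale, and limma 3.58.1 tested STZ against Control (two-sided, prior variance following the reads) over 4769 exons with at least 10 informative reads in every library. Benjamini-Hochberg adjustment ran over all of these. Tested on simulated data, 18% of 100 changes of 1 and 54% of 100 changes of 2 on the logit scale were recovered over 4769 exons. There 32.1% of calls were exons without a change, and 2.9% of the 69 calls where Psi changed by at least 0.10, so smaller calls are weak. The Mettl3 exons and the lists were chosen with earlier results of these data known. Named besides Mettl3 are the called exons of the m6A lists, for a gene without a call its exon with most informative reads, the 5 nearest exons by Psi and the 5 exons without exclusion-only reads described above. The exons of Igf2bp3 and Ythdf1 were named after their values were seen.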

Additional observations from a re-analysis of the deposited data

How the results depend on the processing

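Without any 1 library, Psi of exon 4 of Mettl3 was lower in STZ by 0.55 to 0.6 (-0.55 to -0.6) and that of exon 9 by 0.625 to 0.655 (-0.625 to -0.655). With the share of inclusion-only reads in place of Psi the difference of exon 4 was -0.374, and -0.493 with that share corrected for 2 junctions against 1. That of exon 9 was 0 both ways, since it has 0 exclusion-only reads. The 713 exons called in all became 282 (without Control A), 304 (STZ B), 310 (Control B), 348 (STZ C) and 467 (STZ A) with 1 library fewer in the fit. The 6 calls of the m6A lists became 2, 3, 2, 1 and 3 in the same order. The 6 other settings gave 482 to 966 and 5 to 7 calls. With at least 20 informative reads exon 9, at 11 to 16 in STZ, has no value. Scaling to the median event, chosen after seeing the data, changed no direction of the Mettl3 event reads. Of 143 values for the 13 named exons of the lists 119 kept their side of the threshold, 22 lost a call, 2 gained one and 0 turned. No paired analysis was possible because the tables carry no replicate numbers.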

Other observations

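Reads that lie within an event but match neither isoform took another course at exon 2 of Mettl3 than the reads of its isoforms. They stood at 23.5 and 23.3 RPM in Control and at 27.9, 27.2 and 30.7 in STZ, without overlap. At the exon 4 event they stood at 39.9 and 38.8 in Control and at 13.4, 11.5 and 13.6 in STZ. The event of exon 2 spans introns of 4486 and 78 nt, and that of exon 4 introns of 885 and 554 nt. The 881-nt flanking exon of the exon 4 event also holds the intron between exons 5 and 6, so reads spliced there match neither isoform. The source of the reads of neither isoform was not tested.

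Exons of the m6A lists below the minimum of reads show what Psi gives where no read tells the isoforms apart. A 52-nt exon of Igf2bp3 had 0 reads of the 3 fitting classes in every library, and its Psi ran from 0.16 to 0.84. An 81-nt exon of Ythdf1 had 0 informative reads, and its Psi ran from 0.10 to 0.85.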
